A study of Mus musculus with 4 samples.

Results

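The 42 genes described here encode proteins that cells make to pass through mitosis: the cyclins and kinases that start it, the checkpoint, centromere and kinetochore proteins that attach chromosomes to the spindle, the motors that build the spindle, the cytokinesis proteins, the ubiquitin ligase factors that end mitosis, and chromosome structure proteins. They were chosen by name as genes of the G2 and M phases, with earlier results of these data known. All 42 were found among the 22472 gene symbols used. RNA of mouse spleen cells on a C57BL/6 background was sequenced in 4 libraries, with 1 library per group. These came from Ezh2fl/fl CD4-Cre invariant natural killer T cells (KO iNKT), iNKT cells of wild-type mice (WT iNKT), CD44-high CD4+ T cells of Ezh2fl/fl CD4-Cre mice (KO CD44hi) and CD44-high CD4+ T cells of wild-type mice (WT CD44hi). In the KO mice both alleles of Ezh2, the catalytic subunit of the Polycomb repressive complex PRC2, carry loxP sites, and Cre is driven by Cd4 regulatory sequences, so that deletion is aimed at T cells. Ages, the number of mice behind a library and whether the wild-type mice carried loxP sites or Cre are not given in the labels. With a single library per group nothing could be tested, and differences are described by their size.

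Mitosis genes are transcribed in a wave late in the cell cycle and are kept low in resting cells. In resting cells the DREAM complex (the pocket proteins with E2F4, DP and the MuvB core) represses many of them, often through a promoter element called the cell cycle genes homology region (CHR), and in cycling cells B-MYB and FOXM1 join MuvB and activate them. NF-Y, which binds CCAAT boxes, is the other factor long known at these promoters. In T cells of the spleen these RNAs come mostly from the fraction of cells that is dividing, and in a sorted population a larger share of dividing cells and more RNA per dividing cell cannot be told apart.

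Ezh2 itself was at 16.8 FPKM in KO iNKT, 15.3 in WT iNKT, 18.5 in KO CD44hi and 28.9 in WT CD44hi (FPKM: fragments relative to transcript length and to library size). A value over the whole gene keeps fragments from exons outside the deleted part, so it does not check the genotype labels, and KO means a library labelled KO. In units of 1000000 fragments the estimated depth was 5.28 in KO iNKT, 4.90 in WT iNKT, 24.0 in KO CD44hi and 18.1 in WT CD44hi, so 1 fragment in a transcript of 2 kilobases was worth 0.0946 FPKM in KO iNKT, 0.102 in WT iNKT, 0.0208 in KO CD44hi and 0.0277 in WT CD44hi. T cell marker genes were high in all 4 libraries, with Cd3g between 513 and 631 FPKM. Zbtb16, which encodes the iNKT factor PLZF, was at 63.1 FPKM in KO iNKT, 28.2 in WT iNKT, 41.4 in KO CD44hi and 4.30 in WT CD44hi, so a gene that marks iNKT cells was also present in the KO library of the other cell type, and nothing in the labels tells whether that sort excluded cells that bind the CD1d tetramer. Zbtb16 is 1 of 5 iNKT markers listed, and the other 4 were lower in KO iNKT than in WT iNKT, with values given beside the iNKT results. The CD44hi libraries held RNA of other cells as well, in unequal amounts, which is set beside the CD44hi results. Eif2s3y and Ddx3y, genes of the Y chromosome, were at 22.7 and 11.5 FPKM in WT CD44hi. In the other 3 libraries they were at or near 0, so that only WT CD44hi held RNA of male cells. Xist, which female cells express, was at 76.8 FPKM in KO iNKT, 55.3 in WT iNKT, 80.0 in KO CD44hi and 46.8 in WT CD44hi. WT CD44hi thus held RNA of both sexes. In the CD44hi pair this difference in sex cannot be told apart from genotype.

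As a group the mitosis genes were higher in KO iNKT than in any other library, with Pttg1, Smc4 and Cdc25b the clearest exceptions. Their summed level was 550.4 FPKM in KO iNKT and 347 in WT iNKT, and 382 in KO CD44hi and 474 in WT CD44hi. The median member was at 7.77 FPKM in KO iNKT and 4.55 in WT iNKT, and at 4.85 in KO CD44hi and 5.22 in WT CD44hi. In KO iNKT 32 members stood at 5 FPKM or more, against 19 in WT iNKT, while KO CD44hi had 19 and WT CD44hi 23. KO iNKT was the highest library for 35 of the 42 members, WT CD44hi for 5, KO CD44hi for 2 and WT iNKT for 0. WT iNKT and KO CD44hi were each the lowest library for 17 members, WT CD44hi for 7 and KO iNKT for 1, which was Pttg1.

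**Figure D1:**
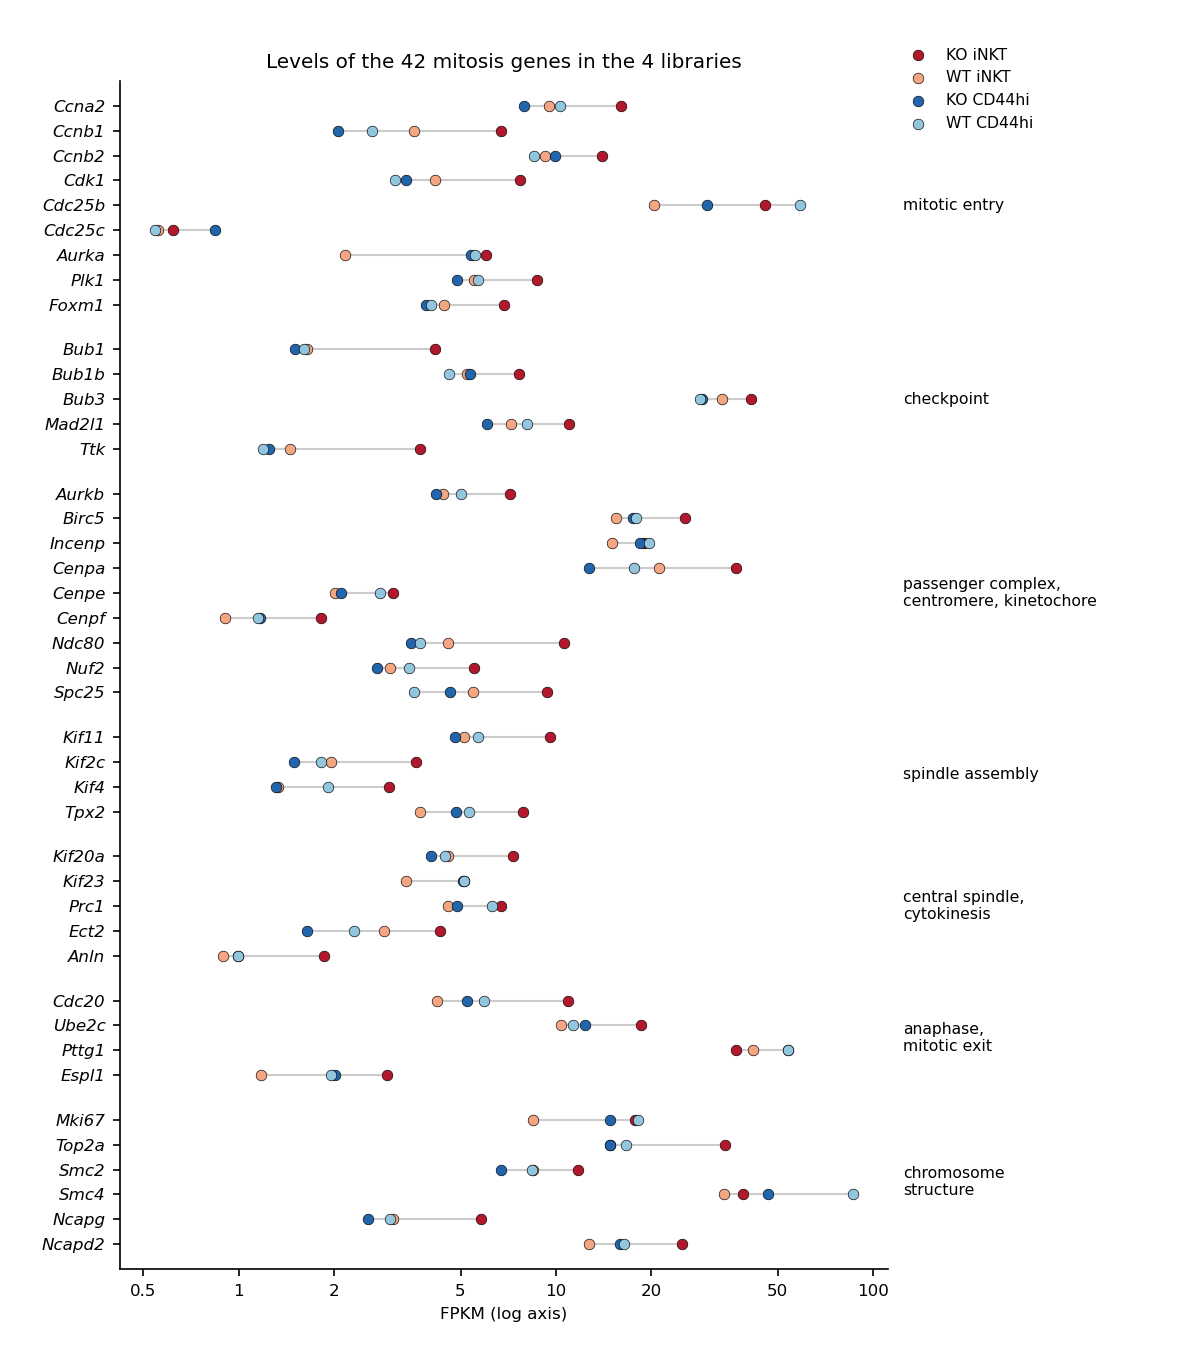
Levels of the 42 mitosis genes in FPKM on a log axis, with 1 row per gene, grouped by role, and 1 point per library. The KO iNKT points lie rightmost in 35 rows, and the exceptions include Cdc25b and Smc4, which were highest in WT CD44hi, and Pttg1, where KO iNKT is leftmost.

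Because 34 of the 42 genes have a promoter window in RefSeq (build GRCm38.p6; 250 bases before to 50 after the annotated start), the letters of the CHR and of the CCAAT box were looked for in them. The windows of the 5 genes that were 2-fold higher in KO iNKT than in WT iNKT are printed here, with that of Pttg1, the 1 member that was not higher in KO iNKT. Capitals mark matches to the CCAAT box (CCAAT, or ATTGG on the other strand) and to the CHR (TTTGAA, or TTCAAA on the other strand), and the sequences run along the strand of the gene. The Cdc25b window lies at chr2:131186698-131186997, plus strand, that of Aurka at chr2:172370521-172370820, minus strand, that of Ndc80 at chr17:71526808-71527107, minus strand, that of Cdc20 at chr4:118437294-118437593, minus strand, that of Top2a at chr11:99024140-99024439, minus strand and that of Pttg1 at chr11:43425932-43426231, minus strand.
Cdc25b: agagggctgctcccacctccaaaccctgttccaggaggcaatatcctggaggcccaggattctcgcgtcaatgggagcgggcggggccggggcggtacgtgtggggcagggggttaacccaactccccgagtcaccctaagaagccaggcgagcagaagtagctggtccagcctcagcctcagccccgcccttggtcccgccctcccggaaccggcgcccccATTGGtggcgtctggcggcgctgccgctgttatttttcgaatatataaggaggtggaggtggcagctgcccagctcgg
Aurka: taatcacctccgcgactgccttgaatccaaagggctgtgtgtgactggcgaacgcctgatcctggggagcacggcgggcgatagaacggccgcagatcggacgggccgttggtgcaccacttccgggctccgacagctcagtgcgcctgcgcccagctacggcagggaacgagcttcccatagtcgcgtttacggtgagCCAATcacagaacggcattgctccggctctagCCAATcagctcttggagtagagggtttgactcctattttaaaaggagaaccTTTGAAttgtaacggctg
Ndc80: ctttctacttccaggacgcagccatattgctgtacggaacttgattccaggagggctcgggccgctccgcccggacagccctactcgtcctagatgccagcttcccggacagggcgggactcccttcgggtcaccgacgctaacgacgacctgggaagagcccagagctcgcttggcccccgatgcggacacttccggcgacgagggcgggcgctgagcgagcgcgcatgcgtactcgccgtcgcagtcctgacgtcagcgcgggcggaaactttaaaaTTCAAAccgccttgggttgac
Cdc20: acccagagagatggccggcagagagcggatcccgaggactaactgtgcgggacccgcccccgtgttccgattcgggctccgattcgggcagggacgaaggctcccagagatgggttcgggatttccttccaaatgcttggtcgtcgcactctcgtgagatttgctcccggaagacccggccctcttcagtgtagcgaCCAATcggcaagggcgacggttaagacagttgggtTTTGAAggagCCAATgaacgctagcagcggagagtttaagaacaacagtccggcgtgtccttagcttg
Top2a: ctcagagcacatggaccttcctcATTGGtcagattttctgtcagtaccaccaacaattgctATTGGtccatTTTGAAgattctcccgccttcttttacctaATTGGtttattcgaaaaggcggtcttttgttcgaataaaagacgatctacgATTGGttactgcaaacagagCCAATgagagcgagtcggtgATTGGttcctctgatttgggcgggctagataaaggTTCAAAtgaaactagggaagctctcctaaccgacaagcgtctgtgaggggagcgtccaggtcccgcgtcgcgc
Pttg1: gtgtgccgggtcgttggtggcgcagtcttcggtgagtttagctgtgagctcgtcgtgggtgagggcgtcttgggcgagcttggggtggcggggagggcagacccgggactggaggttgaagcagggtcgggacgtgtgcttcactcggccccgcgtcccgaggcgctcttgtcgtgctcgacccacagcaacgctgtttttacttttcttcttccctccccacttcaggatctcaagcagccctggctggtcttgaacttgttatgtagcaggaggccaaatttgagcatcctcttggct

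Top2a had 6 CCAAT boxes and 2 CHR matches in its window, Aurka and Cdc20 had 2 CCAAT boxes and 1 CHR match each, Ndc80 had 1 CHR match, Cdc25b had 1 CCAAT box, and Pttg1 had neither motif. Of the 34 members, 26 (76.5%) held a CHR match, 27 (79.4%) a CCAAT box and 23 (67.6%) both. Among all 27025 genes with a window the shares were 20.2%, 41.1% and 7.97%, and among the 8404 of them at 1 FPKM or more in any of these libraries they were 14.2%, 43.5% and 5.87%. A CHR match between 60 bases before and 50 after the start was present in 23 members (67.6%), against 6.36% of all genes. The 33 CHR matches of the members had a median position 15 bases before the start, and the 57 CCAAT boxes one 71 bases before it. Birc5, Mad2l1, Nuf2 and Pttg1 had neither motif in the window. The FPKM ratio of KO iNKT to WT iNKT had a median of 1.86 over the 26 members with a CHR match and of 1.75 over the 8 without. A match is a description of these letters and not a bound site, and matches to the CHR and the CCAAT box can share at most 1 base. The remaining 8 members, Foxm1, Ccna2, Smc4, Incenp, Aurkb, Tpx2, Cdc25c and Kif20a, are named only.

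**Figure D2:**
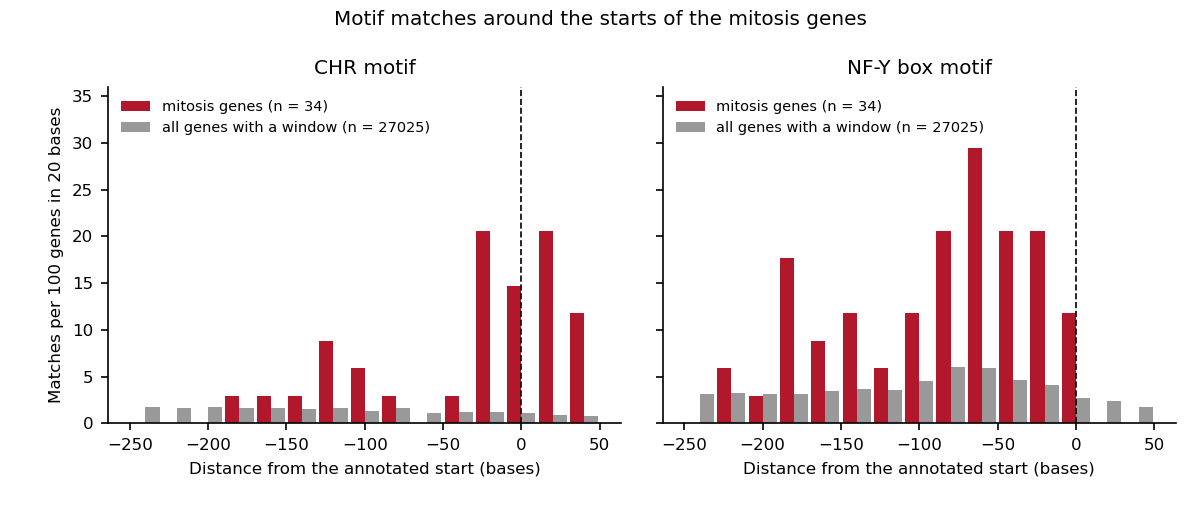
Motif matches per 100 genes in bins of 20 bases around the annotated start, for the CHR (left) and the NF-Y box (right), in the 34 mitosis genes (red) and in all 27025 genes with a window (grey). The CHR matches of the mitosis genes gather between 30 bases before and 50 after the start, and their NF-Y boxes upstream of it.

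The comparison of KO iNKT with WT iNKT asks whether the loss aimed at Ezh2 goes with a change in mitosis genes in this lineage. A gene counted as measured when it reached 1 FPKM in at least 1 of the 2 libraries, and as 2-fold higher or lower when the difference of log2(FPKM + 1) reached 1. Of 41 measured members, 40 were above WT iNKT (55.9% of 10816 measured genes were), and the median log2 difference was 0.69, against 0.05 over all measured genes. Top2a, Cdc20, Cdc25b, Aurka and Ndc80 reached 2-fold higher, which makes 5 of 41, or 12.2%, against a background of 6.08%. None was 2-fold lower (background 3.34%). The shift was thus broad and moderate: the plain FPKM ratio of KO iNKT to WT iNKT had a median of 1.78 and ran from 0.885 to 2.78, with the middle members between 1.52 and 2.09. A ratio of 1.5 or more was reached by 34 members (17.8% of all measured genes) and a ratio of 2 or more by 13 (9.68%). The 95% counting interval of the ratio, which covers counting error and not variation between mice or sorts, lay above 1 for 40 members (29.3% of genes with an interval) and below 1 for none (19.7%). For the summed level the ratio was 1.58 (1.52 to 1.65).

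**Figure D3:**
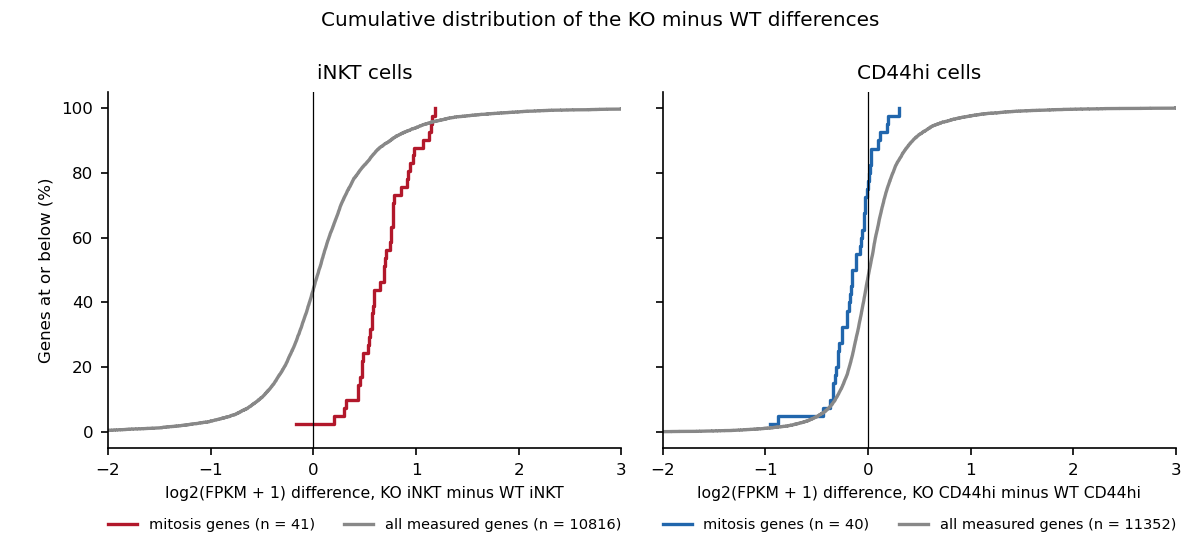
Cumulative share of genes (%) by the difference of log2(FPKM + 1), KO minus WT, in iNKT cells (left) and CD44hi cells (right), for the mitosis genes (coloured) and all measured genes (grey). In iNKT cells the whole curve of the mitosis genes except Pttg1 lies right of 0, with its median at 0.69, and in CD44hi cells it lies slightly left of all genes, with its median at -0.13.

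The genes of mitotic entry were all higher in KO iNKT where measured (8 of 8), and 2 of them, Aurka and Cdc25b, reached 2-fold. Cdk1, the kinase that drives cells into mitosis, was at 7.69 FPKM in KO iNKT, 4.15 in WT iNKT, 3.38 in KO CD44hi and 3.10 in WT CD44hi. Ccnb1, which encodes cyclin B1, its main partner, was at 6.70 FPKM in KO iNKT, 3.57 in WT iNKT, 2.06 in KO CD44hi and 2.63 in WT CD44hi. Ccnb2, for cyclin B2, was at 13.9 FPKM in KO iNKT, 9.26 in WT iNKT, 9.90 in KO CD44hi and 8.52 in WT CD44hi, and of the 3 genes it had the smallest KO iNKT to WT iNKT ratio, 1.504 (1.11 to 2.06), beside 1.85 (1.43 to 2.41) for Cdk1 and 1.87 (1.29 to 2.76) for Ccnb1 (95% counting intervals in brackets here and below). Ccna2, for cyclin A2, which acts in S phase and early mitosis, was at 16.0 FPKM in KO iNKT, 9.48 in WT iNKT, 7.94 in KO CD44hi and 10.3 in WT CD44hi, with ratios of 1.69 (1.37 to 2.09) in iNKT and 0.771 (0.684 to 0.869) in CD44hi.

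Cdc25b, a phosphatase that removes inhibitory phosphates from CDK1, was the most abundant of the entry genes, at 45.5 FPKM in KO iNKT, 20.3 in WT iNKT, 29.9 in KO CD44hi and 58.7 in WT CD44hi. It was the member whose genotype difference was most unlike in the 2 cell types: the ratio of KO to WT was 2.24 (1.96 to 2.57) in iNKT and 0.509 (0.482 to 0.537) in CD44hi, and WT CD44hi was the highest of the 4 libraries. Its relative Cdc25c stayed below 1 FPKM in all 4 libraries (0.544 to 0.842) and was not measured in any comparison. Aurka, for the kinase Aurora A that matures centrosomes, was at 6.00 FPKM in KO iNKT, 2.16 in WT iNKT, 5.41 in KO CD44hi and 5.55 in WT CD44hi, so that WT iNKT stood apart below the other 3 libraries. Its ratio of 2.78 (1.65 to 4.87) in iNKT was the largest plain ratio of all 42 members. Plk1, for the Polo-like kinase that promotes mitotic entry and spindle assembly, was at 8.69 FPKM in KO iNKT, 5.52 in WT iNKT, 4.88 in KO CD44hi and 5.67 in WT CD44hi. Foxm1, which encodes the activator of late cell cycle genes, was at 6.87 FPKM in KO iNKT, 4.44 in WT iNKT, 3.90 in KO CD44hi and 4.04 in WT CD44hi. Both were highest in KO iNKT, with ratios of 1.57 (1.13 to 2.21) for Plk1 and 1.55 (1.20 to 1.997) for Foxm1, and in the CD44hi pair both intervals held 1.

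All 5 spindle assembly checkpoint genes were higher in KO iNKT than in WT iNKT, and none reached 2-fold on the log2(FPKM + 1) scale. This checkpoint holds cells before anaphase until every kinetochore is attached. Bub1b, which encodes the checkpoint protein BUBR1, was at 7.65 FPKM in KO iNKT, 5.25 in WT iNKT, 5.37 in KO CD44hi and 4.59 in WT CD44hi. It was the 1 member whose counting interval lay above 1 in the CD44hi pair, at 1.17 (1.01 to 1.36). Bub3, the partner of BUB1 and BUBR1, was the most abundant checkpoint gene, at 41.3 FPKM in KO iNKT, 33.4 in WT iNKT, 28.9 in KO CD44hi and 28.4 in WT CD44hi, and had the smallest iNKT ratio of the 5, 1.24 (1.08 to 1.42). Mad2l1, for the inhibitor of CDC20 that the checkpoint produces, was at 11.01 FPKM in KO iNKT, 7.19 in WT iNKT, 6.05 in KO CD44hi and 8.09 in WT CD44hi, with ratios of 1.53 (1.10 to 2.14) in iNKT and 0.748 (0.626 to 0.895) in CD44hi. The checkpoint kinase genes Bub1 and Ttk did not reach 5 FPKM in any library, yet their plain ratios were the largest of the checkpoint, at 2.54 (1.62 to 4.08) for Bub1 and 2.56 (1.51 to 4.51) for Ttk. Their log2(FPKM + 1) differences were 0.97 and 0.94, since that scale shrinks the differences of low genes.

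Of the 9 genes of the chromosomal passenger complex, the centromere and the kinetochore, 9 were higher in KO iNKT and Ndc80 reached 2-fold. The passenger complex corrects faulty attachments and acts in cytokinesis. Its kinase gene Aurkb was at 7.15 FPKM in KO iNKT, 4.42 in WT iNKT, 4.19 in KO CD44hi and 5.0002 in WT CD44hi. Birc5, for the subunit survivin, was at 25.5 FPKM in KO iNKT, 15.4 in WT iNKT, 17.5 in KO CD44hi and 17.9 in WT CD44hi. Incenp, for the scaffold subunit, was at 19.0 FPKM in KO iNKT, 15.0 in WT iNKT, 18.5 in KO CD44hi and 19.6 in WT CD44hi. The KO iNKT to WT iNKT ratios were 1.62 (1.09 to 2.42) for Aurkb, 1.65 (1.36 to 2.01) for Birc5 and 1.27 (1.07 to 1.504) for Incenp, the smallest of the 3, with overlapping intervals. For Incenp KO iNKT was level with the CD44hi libraries.

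Cenpa encodes the histone H3 variant that marks centromeres and was at 37.0 FPKM in KO iNKT, 21.2 in WT iNKT, 12.7 in KO CD44hi and 17.6 in WT CD44hi. It was higher in KO iNKT than in WT iNKT, with a ratio of 1.75 (1.35 to 2.26), and lower in KO CD44hi than in WT CD44hi, with a ratio of 0.723 (0.611 to 0.855). NDC80, NUF2 and SPC25 are subunits of the NDC80 complex, which holds the ends of microtubules at the kinetochore. Ndc80 was at 10.6 FPKM in KO iNKT, 4.56 in WT iNKT, 3.50 in KO CD44hi and 3.72 in WT CD44hi. Nuf2 was at 5.53 FPKM in KO iNKT, 2.99 in WT iNKT, 2.73 in KO CD44hi and 3.43 in WT CD44hi. Spc25 was at 9.39 FPKM in KO iNKT, 5.47 in WT iNKT, 4.65 in KO CD44hi and 3.58 in WT CD44hi. All 3 were highest in KO iNKT, with ratios of 2.33 (1.66 to 3.32) for Ndc80, 1.85 (1.22 to 2.86) for Nuf2 and 1.72 (1.13 to 2.65) for Spc25. Cenpe, for a kinetochore motor, and Cenpf, for a large outer kinetochore protein, were low, between 0.904 and 3.06 FPKM, with ratios of 1.52 (1.14 to 2.05) for Cenpe and 2.01 (1.42 to 2.88) for Cenpf in iNKT.

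The 4 genes of spindle motors and spindle assembly were all higher in KO iNKT, by a median ratio of 1.99, and all lower in KO CD44hi than in WT CD44hi, by a median ratio of 0.832. None reached 2-fold on the log2(FPKM + 1) scale. Kif11, for the kinesin Eg5 that pushes the spindle poles apart, was at 9.55 FPKM in KO iNKT, 5.12 in WT iNKT, 4.79 in KO CD44hi and 5.66 in WT CD44hi. Tpx2, for the protein that activates Aurora A on the spindle, was at 7.85 FPKM in KO iNKT, 3.72 in WT iNKT, 4.82 in KO CD44hi and 5.31 in WT CD44hi. As with Aurka, WT iNKT was the lowest library for Tpx2, and the iNKT ratio was 2.11 (1.61 to 2.80), beside 1.87 (1.49 to 2.34) for Kif11. Kif2c, for the microtubule-depolymerising kinesin MCAK, and Kif4, for a chromosome-bound kinesin, stayed between 1.31 and 3.61 FPKM, with iNKT ratios of 1.85 (1.12 to 3.12) for Kif2c and 2.24 (1.47 to 3.48) for Kif4.

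All 5 genes of the central spindle and cytokinesis were higher in KO iNKT, none by 2-fold, and their median iNKT ratio of 1.52 was the smallest of the role groups beside that of the checkpoint, 1.53. Kif20a, for the kinesin MKLP2 that carries the passenger complex to the central spindle, was at 7.33 FPKM in KO iNKT, 4.58 in WT iNKT, 4.05 in KO CD44hi and 4.46 in WT CD44hi. Kif23, for the kinesin MKLP1 of the centralspindlin complex, was at 5.12 FPKM in KO iNKT, 3.37 in WT iNKT, 5.08 in KO CD44hi and 5.12 in WT CD44hi. Prc1, which bundles the microtubules of the central spindle, was at 6.70 FPKM in KO iNKT, 4.55 in WT iNKT, 4.88 in KO CD44hi and 6.28 in WT CD44hi. Kif23 was lower in WT iNKT than in the other 3 libraries, which were level with each other, and for Prc1 KO iNKT and WT CD44hi were close. The iNKT ratios were 1.601 (1.18 to 2.18) for Kif20a, 1.52 (1.08 to 2.16) for Kif23 and 1.47 (1.08 to 2.03) for Prc1. Ect2, for the exchange factor that activates RhoA at the cleavage furrow, and Anln, for the scaffold anillin, were between 0.890 and 4.31 FPKM, with iNKT ratios of 1.504 (1.07 to 2.13) for Ect2 and 2.08 (1.21 to 3.72) for Anln.

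The genes of anaphase onset and mitotic exit split. Cdc20, the activator of the anaphase-promoting complex, was at 10.9 FPKM in KO iNKT, 4.23 in WT iNKT, 5.25 in KO CD44hi and 5.95 in WT CD44hi, and with a log2 difference of 1.19 it had the largest difference of all members in the iNKT pair (ratio 2.58 (1.75 to 3.86)). Ube2c, for the E2 enzyme of that complex, was at 18.5 FPKM in KO iNKT, 10.4 in WT iNKT, 12.3 in KO CD44hi and 11.3 in WT CD44hi (iNKT ratio 1.78 (1.25 to 2.57)). Espl1, for separase, the protease that cuts cohesin, was between 1.17 and 2.93 FPKM, with an iNKT ratio of 2.49 (1.70 to 3.71). Pttg1, for securin, the inhibitor of separase, was at 37.0 FPKM in KO iNKT, 41.8 in WT iNKT, 54.0 in KO CD44hi and 53.9 in WT CD44hi. It was the 1 member lower in KO iNKT than in WT iNKT, with a ratio of 0.885 (0.700 to 1.12) whose interval held 1, and the CD44hi libraries were equal (ratio 1.002 (0.909 to 1.11)).

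Chromosome structure genes were all higher in KO iNKT (6 of 6), with Top2a reaching 2-fold. Top2a, for the topoisomerase that untangles sister chromatids, was at 34.1 FPKM in KO iNKT, 14.7 in WT iNKT, 14.8 in KO CD44hi and 16.6 in WT CD44hi. KO iNKT stood alone, at 2.31 (2.05 to 2.61) times WT iNKT and 2.30 (2.13 to 2.49) times KO CD44hi. Mki67, for the chromosome surface protein Ki-67 used to score dividing cells, was at 17.7 FPKM in KO iNKT, 8.47 in WT iNKT, 14.8 in KO CD44hi and 18.1 in WT CD44hi. Here KO iNKT was level with WT CD44hi, WT iNKT was lowest, and the log2 difference of 0.98 in iNKT was just under 2-fold (ratio 2.09 (1.86 to 2.35)).

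Condensin compacts mitotic chromosomes, and its members did not all behave alike. Ncapd2, for a subunit of condensin I, was at 24.9 FPKM in KO iNKT, 12.7 in WT iNKT, 15.9 in KO CD44hi and 16.4 in WT CD44hi. Ncapg, for another subunit of condensin I, was at 5.80 FPKM in KO iNKT, 3.05 in WT iNKT, 2.56 in KO CD44hi and 3.001 in WT CD44hi. Their iNKT ratios were 1.96 (1.70 to 2.26) for Ncapd2 and 1.90 (1.37 to 2.67) for Ncapg. The ATPase genes Smc2 and Smc4, shared by both condensins, had smaller iNKT ratios of 1.39 (1.17 to 1.65) for Smc2 and 1.15 (1.04 to 1.27) for Smc4. Smc2 was at 11.8 FPKM in KO iNKT, 8.47 in WT iNKT, 6.72 in KO CD44hi and 8.42 in WT CD44hi. Smc4 was at 38.8 FPKM in KO iNKT, 33.7 in WT iNKT, 46.5 in KO CD44hi and 86.4 in WT CD44hi, and the WT CD44hi value was the highest of any member in any library. In the CD44hi pair the ratio of Smc4 was 0.538 (0.519 to 0.559), beside 0.798 (0.724 to 0.879) for Smc2, although both proteins form 1 heterodimer.

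**Figure D4:**
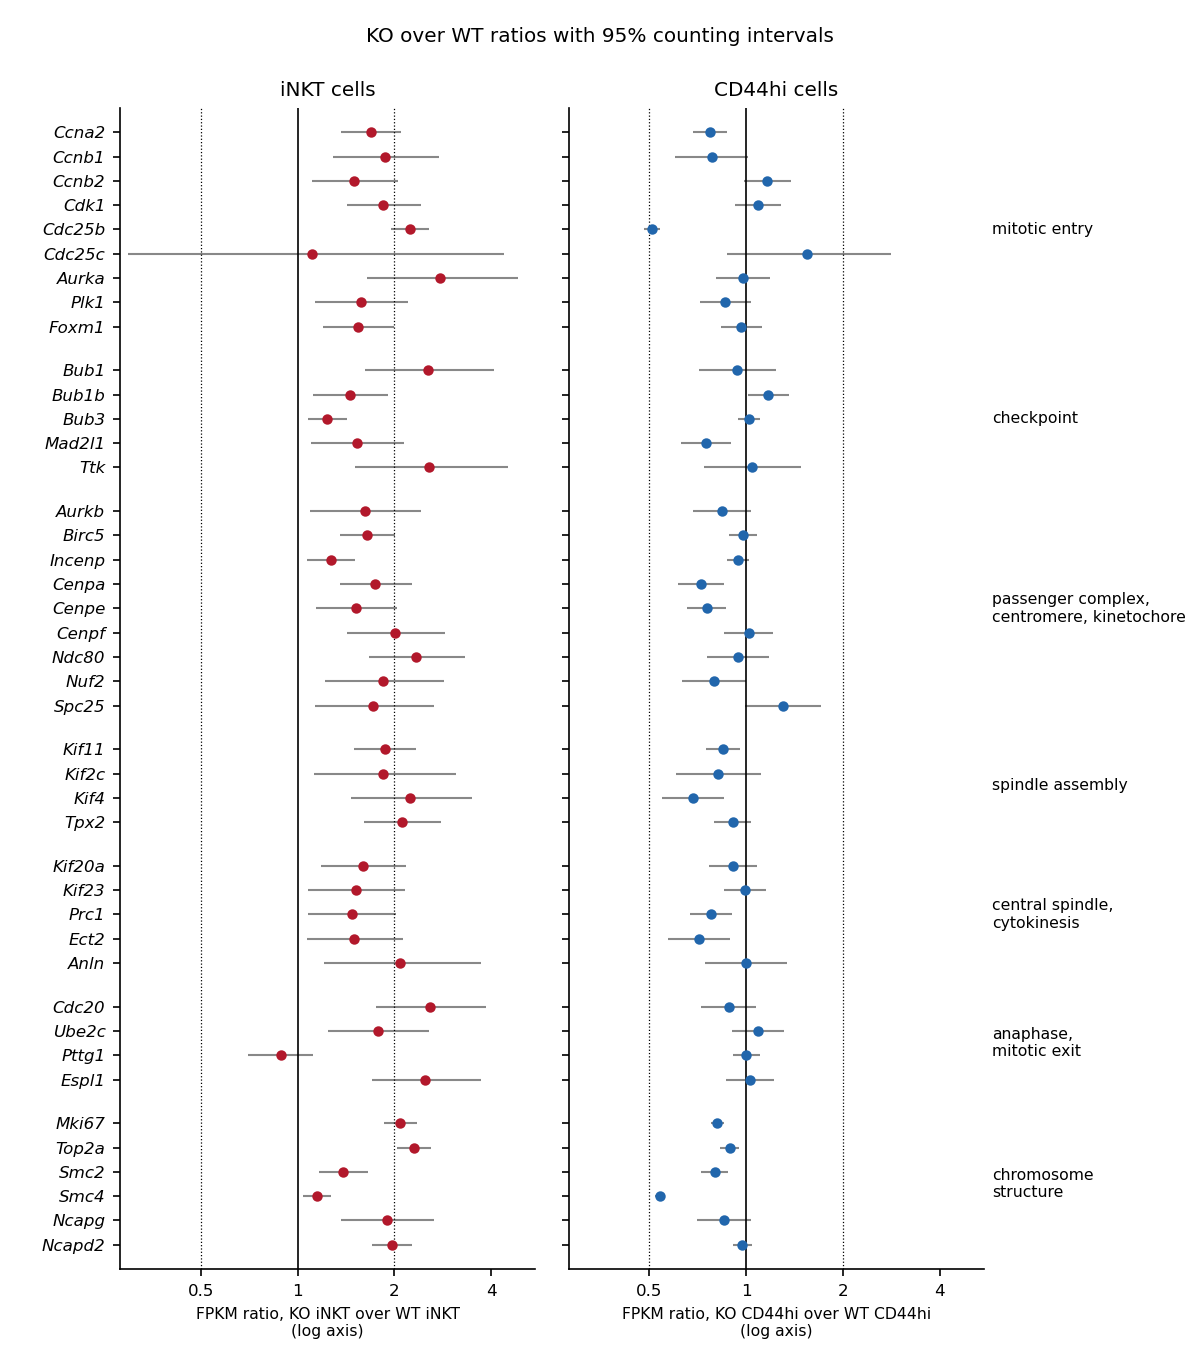
FPKM ratio of KO to WT on a log axis with its 95% counting interval, for each of the 42 mitosis genes grouped by role, in iNKT cells (left) and CD44hi cells (right). In iNKT cells every point but that of Pttg1 lies right of 1, between 1.11 and 2.78, and in CD44hi cells most lie at or left of 1, with Cdc25b at 0.509 and Smc4 at 0.538 farthest out.

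In CD44-high CD4+ T cells, KO CD44hi was set against WT CD44hi with the same question. Here mitosis genes were slightly lower in KO: of 40 measured members, 10 were above WT CD44hi (52.4% of 11352 measured genes were), and the median log2 difference was -0.13, against 0.01 over all measured genes. None was 2-fold higher (background 2.44%) and none 2-fold lower (1.14%). The counting interval of the ratio lay above 1 for 1 member (29% of genes) and below 1 for 13 (26.6%), a share close to the background. The lowest were Cdc25b, with a log2 difference of -0.95, Smc4 with -0.88, Cenpa with -0.44 and Mad2l1 with -0.37. The highest were Spc25 with 0.30, Ccnb2 with 0.20, Bub1b with 0.19 and Ube2c with 0.11. The summed level was 382 FPKM in KO CD44hi and 474 in WT CD44hi, a ratio of 0.807 (0.790 to 0.824). Cdc25b and Smc4 carried most of this, since the other 40 members summed to 306 FPKM in KO CD44hi and 328 in WT CD44hi, a ratio of 0.931.

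Markers of other cells differed in the same pair. The 12 listed red cell genes present in the files summed to 750.1 FPKM in KO CD44hi and 159 in WT CD44hi, with 7 of 10 measured ones 2-fold higher. Hba-a1, a haemoglobin gene, was at 509 FPKM in KO CD44hi and 115 in WT CD44hi. The 6 markers of plasmacytoid dendritic cells summed to 443 FPKM in KO CD44hi and 116 in WT CD44hi, with 5 of 6 at least 2-fold higher. Over all measured genes 2.44% were 2-fold higher in this pair. In KO CD44hi the markers of plasma cells summed to 227 FPKM, of myeloid cells to 599.8, of B cells to 92.7, of NK cells to 66.8 and of CD8 T cells to 17.1. In WT CD44hi the same sums were 103 FPKM for plasma cells, 332 for myeloid cells and 59.0 for B cells. They were 29.9 FPKM for NK cells and 11.2 for CD8 T cells, so that each sum was lower in WT CD44hi. Most of the myeloid sum of KO CD44hi was Tyrobp (305 FPKM, against 121 in WT CD44hi) and Fcer1g (155 against 95.2). Itgam, Cd68 and Emr1 were also higher in KO CD44hi, but Lyz2, Csf1r and Cd14 were level or lower. Igj (154 FPKM, against 40.3 in WT CD44hi) made up most of the plasma cell sum of KO CD44hi. Sdc1, Xbp1 and Tnfrsf17 were also higher there, but Irf4 was lower and Prdm1 2-fold lower. Of the B cell markers Cd22 was lower in KO CD44hi and the others higher. Most of the NK cell sum of KO CD44hi was Klrb1c, which is also on the iNKT list. Klrb1c was at 58.5 FPKM in KO CD44hi and 14.9 in WT CD44hi. Klra8 was also higher in KO CD44hi, but below 1 FPKM in both libraries. The NK markers Gzma, Eomes and Ncr1 were lower in KO CD44hi than in WT CD44hi. Gzma was at 5.92 FPKM in KO CD44hi and 9.97 in WT CD44hi, and Ncr1 at 0.565 and 1.42. T cell markers summed to 2159 FPKM in KO CD44hi and 2369 in WT CD44hi. The part of these cells in the CD44hi values was not tested.

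Markers of the iNKT cells themselves also differed within the iNKT pair. The 5 listed ones summed to 508 FPKM in KO iNKT and 1571 in WT iNKT, a ratio of 0.324, with Zbtb16 2-fold higher and Il2rb and Cxcr6 2-fold lower. Il2rb, for the beta chain of the IL-2 and IL-15 receptors, was at 198 FPKM in KO iNKT, 814 in WT iNKT, 102 in KO CD44hi and 178 in WT CD44hi, and Cxcr6, for a chemokine receptor of iNKT cells, at 94.6 FPKM in KO iNKT, 468 in WT iNKT, 127 in KO CD44hi and 69.6 in WT CD44hi. Klrb1c, for the receptor NK1.1, was at 96.2 FPKM in KO iNKT, 177 in WT iNKT, 58.5 in KO CD44hi and 14.9 in WT CD44hi, and Cd44, for the adhesion receptor used in the other sort, at 56.3 FPKM in KO iNKT, 83.3 in WT iNKT, 53.1 in KO CD44hi and 54.3 in WT CD44hi. The libraries with more and with less mitosis RNA thus also differed in these markers, and their part in the mitosis values was not tested.

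The iNKT libraries held less RNA of B, red, plasma, myeloid and CD8 T cells than the CD44hi libraries. Markers of B cells summed to 1.40 FPKM in KO iNKT and 0.866 in WT iNKT, with 0 of 7 measured and Pax5 and Blnk at 0 in both libraries. Red cell genes summed to 18.7 FPKM in KO iNKT and 19.1 in WT iNKT, with Klf1 and Epor at 0 in both, and myeloid markers to 14.5 in KO iNKT and 30.0 in WT iNKT. Plasma cell markers summed to 50.4 FPKM in KO iNKT and 57.7 in WT iNKT, with Tnfrsf17 at 0 in both and Igj at 0.661 FPKM in KO iNKT and 1.43 in WT iNKT. Siglech, the defining marker of plasmacytoid dendritic cells on the list, was at 0 in both, and the whole list summed to 98.4 FPKM in KO iNKT and 149.6 in WT iNKT, most of it Bst2. Markers of CD8 T cells summed to 0.316 FPKM in KO iNKT and 0.958 in WT iNKT. Markers of NK cells, several of which iNKT cells also express, had close sums, 193 FPKM in KO iNKT and 180.2 in WT iNKT. The single markers differed: of 4 measured, 3 were 2-fold higher in KO iNKT (background 6.08%), and Klrb1c was lower. Gzma, for the cytotoxic protease granzyme A, was at 89.0 FPKM in KO iNKT, 1.72 in WT iNKT, 5.92 in KO CD44hi and 9.97 in WT CD44hi, an iNKT ratio of 51.7 (25.3 to 125). Eomes, for a transcription factor of NK and memory T cells, was at 3.90 FPKM in KO iNKT and listed at 0 in WT iNKT, and Klra8, for an NK receptor of the Ly49 family, was at 3.33 FPKM in KO iNKT and 1.09 in WT iNKT. The part of cells with these RNAs in the mitosis values of KO iNKT was not tested.

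The genotype difference was set against that of the other cell type by subtracting the log2 difference in CD44hi from that in iNKT. Of 40 members measured in both pairs, 39 had a value above 0 (53.4% of 10453 genes did), with a median of 0.82, against 0.03 over all genes. A gap of 2-fold or more was seen in 13 of the 40 (background 5.64%). By another rule 13 of the 40 were called as well (32.5%, background 8.29%). It asked for higher in KO iNKT, lower in KO CD44hi and both counting intervals clear of 1. The CD44hi part of that rule alone also gave 13, a share close to its background of 26.6%. The gap was widest for Cdc25b, at 2.08, followed by Cdc20 at 1.34, Top2a at 1.31 and Mki67 at 1.26. Pttg1, at -0.17, was the 1 member below 0, and Bub3 at 0.27, Bub1b at 0.28 and Ccnb2 at 0.35 came next. With 1 library per group this difference could not be tested, and the deeper CD44hi libraries were also the ones with other cells in them. Of all libraries only WT CD44hi held RNA of male cells.

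The cell types were then compared within each genotype, which uses the same 4 libraries again, so the values below are not independent of those above. In each comparison the CD44hi library also held more RNA of other cells, whose part was not tested. KO iNKT had more mitosis RNA than KO CD44hi: 39 of 41 measured members were above it (48.2% of all measured genes were), 7 were 2-fold higher (background 3.02%) and 0 were 2-fold lower (9.07%). The 7 were Cenpa, with a log2 difference of 1.47, Ndc80 with 1.37, Ccnb1 with 1.33, Top2a with 1.15, Ttk with 1.07, Bub1 with 1.05 and Ect2 with 1.01. At the other end were Pttg1 with -0.53, Smc4 with -0.25, Kif23 with 0.01 and Incenp with 0.04. The median was 0.68, and the ratio of the sums was 1.44 (1.40 to 1.48).

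WT iNKT showed no such excess over WT CD44hi. Of 40 measured members, 16 were above WT CD44hi (44.5% of all measured genes), 0 were 2-fold higher (background 3.64%) and 4 were 2-fold lower (10.9%). Those 4 were Cdc25b, with a log2 difference of -1.49, Smc4 with -1.33, Aurka with -1.05 and Mki67 with -1.01. The largest were Spc25 with 0.50, Ccnb1 with 0.33, Cdk1 with 0.33 and Cenpa with 0.26. The median was -0.14, against -0.06 over all measured genes, and the ratio of the sums was 0.734 (0.706 to 0.762). Without Cdc25b and Smc4 the ratio of the sums was 0.893. Because only WT CD44hi held RNA of male cells, sex cannot be told apart from cell type in this comparison.

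Other genes of the same processes were listed to see how far the pattern reached. Of 112 such mitosis genes present in the files, 111 were measured in the iNKT pair, with 89 above WT iNKT (55.9% of all measured genes were) and a median log2 difference of 0.42, against 0.05 over all measured genes. Of these 7 were at least 2-fold higher, a share near the background of 6.08%, and 0 were lower. In the CD44hi pair 107 were measured, with 0 higher, 0 lower, 42 above WT CD44hi (52.4% of all measured genes were) and a median of -0.07. The lists did not move alike. In the checkpoint and mitotic kinase list 15 of 16 measured genes were above WT iNKT (median 0.80), and 3 were 2-fold higher: Trip13, for the ATPase that remodels MAD2, at 5.04 FPKM in KO iNKT, 1.41 in WT iNKT, 2.26 in KO CD44hi and 1.81 in WT CD44hi; Ccnf, for cyclin F, at 7.98 FPKM in KO iNKT, 2.74 in WT iNKT, 3.10 in KO CD44hi and 3.15 in WT CD44hi; and Pbk, a mitotic kinase, at 7.45 FPKM in KO iNKT, 2.68 in WT iNKT, 2.36 in KO CD44hi and 1.82 in WT CD44hi. The spindle, kinesin and cytokinesis list had 30 of 33 above WT iNKT (median 0.51), with 2 at least 2-fold higher. Stmn1, for the microtubule regulator stathmin, was at 117 FPKM in KO iNKT, 56.0 in WT iNKT, 54.1 in KO CD44hi and 46.7 in WT CD44hi, and Ckap2l, for a spindle protein, at 5.07 FPKM in KO iNKT, 1.78 in WT iNKT, 2.99 in KO CD44hi and 3.61 in WT CD44hi. Tubb5, for the beta tubulin of most cells, was at 304 FPKM in KO iNKT, 157 in WT iNKT, 195 in KO CD44hi and 176 in WT CD44hi (iNKT ratio 1.94 (1.84 to 2.05)).

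The remaining lists of mitosis genes moved less. Kinetochore and centromere genes had 22 of 27 above WT iNKT (median 0.22) and 0 at least 2-fold higher, with Spc24, for the remaining subunit of the NDC80 complex, closest at 7.04 FPKM in KO iNKT, 3.04 in WT iNKT, 4.97 in KO CD44hi and 3.48 in WT CD44hi. The 4 further condensin genes were all above WT iNKT (median 0.45). Ncaph, for the kleisin of condensin I, was at 8.78 FPKM in KO iNKT, 4.28 in WT iNKT, 4.44 in KO CD44hi and 5.90 in WT CD44hi. Ncapg2, of condensin II, was at 4.95 FPKM in KO iNKT, 2.51 in WT iNKT, 2.40 in KO CD44hi and 2.39 in WT CD44hi. Its iNKT ratio was 1.97 (1.43 to 2.75), beside 2.05 (1.49 to 2.86) for Ncaph. Ncapd3 and Ncaph2, also of condensin II, had iNKT ratios of 1.10 (0.953 to 1.28) for Ncapd3 and 1.09 (0.958 to 1.24) for Ncaph2. Cohesin genes had 10 of 15 above WT iNKT (median 0.16), and 2 were 2-fold higher. Esco2, for an acetyltransferase, was at 4.79 FPKM in KO iNKT, 1.65 in WT iNKT, 1.69 in KO CD44hi and 1.93 in WT CD44hi. Cdca5, for sororin, was at 7.26 FPKM in KO iNKT, 3.07 in WT iNKT, 3.04 in KO CD44hi and 2.53 in WT CD44hi. Anaphase-promoting complex genes had 8 of 16 above WT iNKT (median 0.08) and none past 2-fold in either direction, and Anapc11, for the RING subunit, was at 6.79 FPKM in KO iNKT, 11.02 in WT iNKT, 9.95 in KO CD44hi and 10.1 in WT CD44hi.

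**Figure D5:**
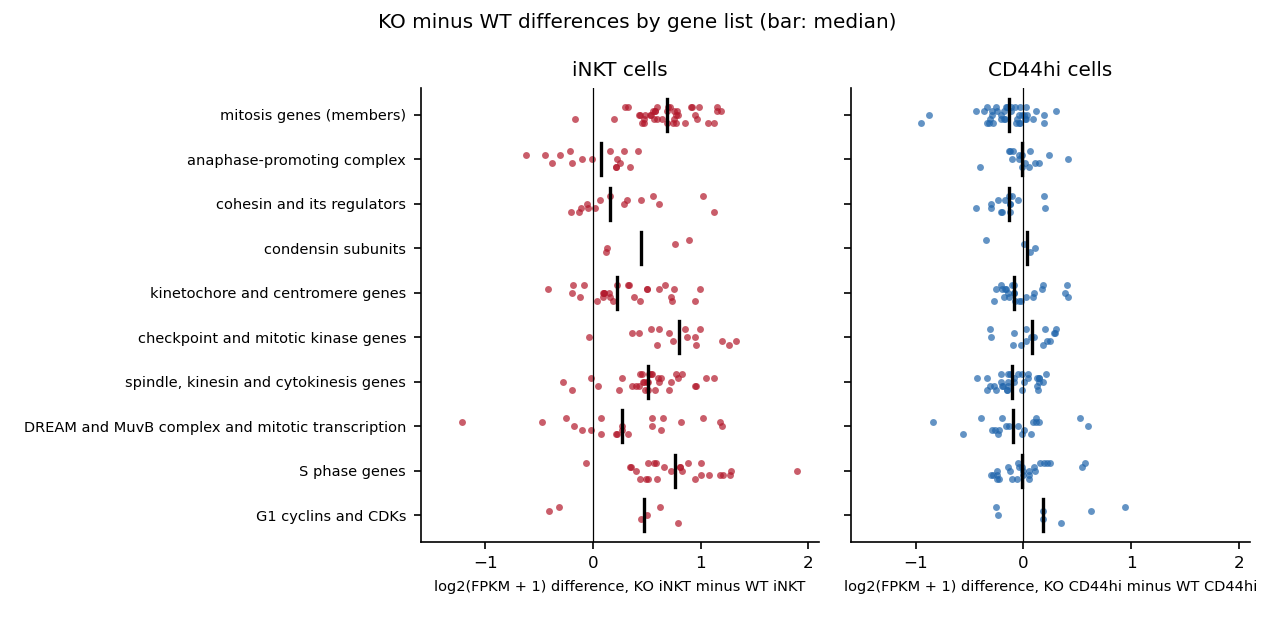
Difference of log2(FPKM + 1), KO minus WT, for each measured gene of the mitosis genes and of 9 related lists, in iNKT cells (left) and CD44hi cells (right), with a bar at the median of each list. In iNKT cells the medians run from 0.08 for the anaphase-promoting complex to 0.80 for checkpoint and mitotic kinase genes, and in CD44hi cells they lie between -0.13 and 0.18.

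Genes of DNA replication and S phase were also higher in KO iNKT. Of 26 S phase genes, 25 were above WT iNKT (median 0.76), beside 55.9% of all measured genes. At least 2-fold higher were 8 (background 6.08%) and 2-fold lower 0 (3.34%). In the CD44hi pair 0 were 2-fold higher or lower (median -0.01, backgrounds 2.44% and 1.14%). Uhrf1, which maintains DNA methylation at replication, was at 25.6 FPKM in KO iNKT, 6.14 in WT iNKT, 9.85 in KO CD44hi and 9.49 in WT CD44hi. Cdc6, a licensing factor of replication origins, was at 4.59 FPKM in KO iNKT, 1.297 in WT iNKT, 1.79 in KO CD44hi and 1.59 in WT CD44hi, and Ccne1, for cyclin E1, at 13.4 FPKM in KO iNKT, 4.97 in WT iNKT, 4.76 in KO CD44hi and 6.11 in WT CD44hi. Among the regulators, 3 of 21 measured genes of the DREAM and MuvB list were 2-fold higher in KO iNKT (background 6.08%). In the same list 1 was 2-fold lower (background 3.34%), and the median was 0.27. Mybl2, for B-MYB, was at 4.07 FPKM in KO iNKT, 1.22 in WT iNKT, 2.17 in KO CD44hi and 1.87 in WT CD44hi, E2f1 at 7.30 FPKM in KO iNKT, 3.09 in WT iNKT, 5.75 in KO CD44hi and 3.70 in WT CD44hi and E2f2 at 8.49 FPKM in KO iNKT, 3.20 in WT iNKT, 6.82 in KO CD44hi and 13.0 in WT CD44hi. Rbl2, which encodes p130, the pocket protein of DREAM in resting cells, was the lower one, at 43.7 FPKM in KO iNKT, 103 in WT iNKT, 47.5 in KO CD44hi and 43.6 in WT CD44hi, with a ratio of 0.425 (0.395 to 0.456) in iNKT and 1.09 (1.04 to 1.14) in CD44hi. WT iNKT thus had the most p130 RNA and KO iNKT was level with both CD44hi libraries. Of the 6 G1 cyclin and CDK genes measured in the iNKT pair none reached 2-fold (median 0.47), and Ccnd1, for cyclin D1, was at 0.698 FPKM in KO iNKT, 0.701 in WT iNKT, 44.7 in KO CD44hi and 22.7 in WT CD44hi.

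The promoter letters were counted in these lists as well. A CHR match was in 16 of 28 windows of spindle, kinesin and cytokinesis genes, 9 of 24 of kinetochore and centromere genes, 4 of 13 of checkpoint and mitotic kinase genes, 2 of 4 of condensin genes, 2 of 7 of cohesin genes and 3 of 15 of anaphase-promoting complex genes, beside 20.2% of all genes. The checkpoint and mitotic kinase list, with the highest iNKT median of these lists, thus had a smaller share of CHR matches than the spindle list. Among the other lists a CHR match was in 7 of 17 windows of DREAM and MuvB genes, 3 of 21 of S phase genes and 0 of 4 of G1 cyclins and CDKs.

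Some values carry a limit from neighbouring or similar sequence, because the library kit did not mark the strand. On the opposite strand, Cdc23 covers 29.3% of the exon bases of Kif20a (GENCODE M21 annotation), Tnnc2 22.8% of Ube2c, Pdzd11 15.1% of Kif4, Lcorl 13.4% of Ncapg, Exosc9 12.5% of Ccna2 and Rccd1 11.1% of Prc1, and fragments there cannot be assigned by strand. Tnnc2 was at most 0.397 FPKM in any library. Processed pseudogenes similar to Ccnb1, Cdc20, Plk1 and Ube2c could also take or give fragments, and their values are uncertain to that extent. The pseudogene 2700099C18Rik, which is 92.7% identical to Ndc80 over 763 bases, was itself at 4.86 FPKM in KO iNKT, 2.89 in WT iNKT, 1.38 in KO CD44hi and 1.74 in WT CD44hi.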

How the data were processed

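Per the labels' protocols, spleen cells were sorted by flow cytometry, with a lipid-loaded CD1d tetramer for iNKT cells and CD44 and CD4 antibodies for CD44hi cells, and total RNA was made into libraries with a TruSeq kit that keeps no strand information. Each file deposited by the authors holds 1 FPKM value per gene, per the file headers. TopHat 1.3.2, Bowtie2 2.0.0, Cufflinks 2.0.2 and the build mm10 appear in the submitters' processing notes, without a role for each. The gene annotation and the strand setting are not given in the sources used here.

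Where a symbol stood on several rows (240 symbols) its values were added up, and 786 small RNA symbols and 26 symbols turned into dates or numbers were left out, which left 22472. Differences were taken on the log2(FPKM + 1) scale, which understates those of low genes, for genes that reached 1 FPKM in either library compared, and ratios are plain FPKM ratios. The files give no counts. Depth was derived from the spacing of low FPKM values among genes of at least 3000 bases (GENCODE M21 lengths, GRCm38), of which 72.8% to 75.5% lay within 0.15 of a whole number of fragments. All 42 members had a length, and the fragments this gave set exact 95% (Clopper-Pearson) intervals, which cover counting error only. The scripts (Python 3.11.15, numpy 2.4.6, pandas 2.3.3, scipy 1.17.1, and minimap2 2.31 for similar sequences) were tested on simulated data.

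The members and the lists beside them were chosen with earlier results of these data known. The level in every library is written out for members at 5 FPKM or more in any library or past 2-fold in a KO to WT comparison, and the others are given by range. The 4 largest and 4 smallest differences are named per comparison, up to 4 genes per related list, and up to 3 per marker list. More of the iNKT, NK, plasma cell and myeloid markers are given, chosen after their values were seen. Replicate numbers in a group of 1 only name the sample. The alternatives were other pseudocounts, filters, scalings, row handling and fold thresholds.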

Additional observations from a re-analysis of the deposited data

Results flagged for a closer look

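For 13 members the KO to WT difference pointed opposite ways in the cell types: KO iNKT was above WT iNKT, KO CD44hi was below WT CD44hi, and both 95% counting intervals of the ratio left out 1. These were 32.5% of the 40 members measured in both pairs, and 8.29% of 9117 genes met the same rule. The CD44hi part of the rule alone was also met by 13 members, a share close to its background of 26.6%. The iNKT part alone was met by 40 members, against a background of 29.3%. With 1 library per group the difference between the cell types was not tested. Its size, as the log2 difference in iNKT minus that in CD44hi, was 2.08 for Cdc25b, 1.31 for Top2a, 1.26 for Mki67, 1.21 for Cenpa, 1.11 for Kif4, 1.08 for Smc4, 1.04 for Ccna2, 0.99 for Kif11 and 0.92 for Mad2l1. It was 0.78 for Ect2, 0.78 for Prc1, 0.72 for Cenpe and 0.72 for Smc2. For 11 of the 13 the CD44hi ratio lay between 0.684 and 0.890, and for the other 2, Cdc25b and Smc4, it was 0.509 and 0.538.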

How the results depend on the processing

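Of 156 recomputed results, 140 stayed close to the reported value, 16 moved and 0 changed direction. Part of the 140 could not move. The ratio of sums uses no pseudocount, filter or fold threshold, and the medians use no fold threshold. The count of members 2-fold higher in KO iNKT than in WT iNKT, 5 as reported, became 11 with a pseudocount of 0.1, 9 with 0.5, 13 with no pseudocount (chosen after seeing the data), 9 with each library scaled to the same sum and 25 at 1.5-fold. The share of all measured genes, 6.08% as reported, became 9.07%, 7.68%, 9.68%, 8.90% and 14.3% under these settings in the same order. Against KO CD44hi the count in KO iNKT, 7 as reported, became 13 with a pseudocount of 0.1, 15 with none, 12 with equal sums, 25 at 1.5-fold and 4 among members at 5 FPKM or more, while the share of all genes, 3.02% as reported, became 5.09%, 5.41%, 4.67%, 10.5% and 2.80% in that order. By construction a smaller pseudocount, or a larger scale beside the same pseudocount, raises the differences of low genes, and a higher filter leaves fewer of them. Members 2-fold lower in KO CD44hi than in WT CD44hi, 0 as reported, became 1 with equal sums (Cdc25b) and 2 at 1.5-fold (Cdc25b and Smc4), beside 1.94% and 3.47% of all genes. The ratio of sums of KO CD44hi to WT CD44hi, 0.807, became 0.768 with equal sums. Leaving out Cdc25b and Smc4, an alternative chosen after seeing the data, gave ratios of sums of 0.931 for KO CD44hi to WT CD44hi, 0.893 for WT iNKT to WT CD44hi and 1.52 for KO iNKT to KO CD44hi. With every member counted, 41 of 42 were above WT iNKT in KO iNKT under each setting, Pttg1 being the exception. In KO CD44hi 31 of 42 were below WT CD44hi as reported and 36 with equal sums. That scaling moved the median of all genes to -0.05 in that pair. Only the scalings and the row handling could change these counts. A pseudocount keeps the sign of a difference, and filters and fold thresholds play no part when every member is counted.

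No paired analysis was possible because each group has 1 library and the replicate numbers only name samples. Leaving out a library would empty its group and was not run. Depth limits the iNKT pair most: for Cdc25c, at an estimated 6.36 fragments in KO iNKT and 5.31 in WT iNKT, a ratio anywhere from 0.296 to 4.38 lies within counting error.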

Other observations

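The KO iNKT to WT iNKT ratio was larger among the members that were lower in WT iNKT. The 21 members between 0.557 and 4.55 FPKM in WT iNKT had a median ratio of 1.87, and the 21 between 4.56 and 41.8 FPKM one of 1.65. The WT iNKT value stands both in the split and in the ratio. The KO CD44hi to WT CD44hi ratio, which does not hold that value, had medians of 0.907 and 0.908 over the same members.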
